A study of Mus musculus with 21 samples.

Results

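The ETO family of corepressors has 3 members in the mouse, *Cbfa2t2* (MTGR1), *Cbfa2t3* (ETO2, MTG16) and *Runx1t1* (ETO, MTG8). All rows of the expression table with these symbols were taken, which gave 3 of 55421 genes, together with every ChIP-seq peak whose nearest gene in the deposited lists is a member, which gave 10 of 6077 Cbfa2t3 peaks and 2 of 5898 Zbtb1 peaks. The cells were LPs, a C57BL6/J lymphoid progenitor line deficient in *Ebf1*, which was grown on OP9 stroma with SCF, IL-7 and Flt3L. QuantSeq was done on 3 libraries for each of 5 conditions: sgControl (against luciferase), sgLmo2, sgZbtb1, sgCbfa2t2 and sgCbfa2t3. In all 5 conditions, controls included, the cells lacked *Ebf1*, carried a retroviral Cas9-GFP and an sgRNA with an hNGFR marker, and were sorted as GFP+hNGFR+ 5 days after sgRNA introduction. The sgRNA vectors of a gene were delivered as a pool into a single cell line, so that a library is a mixture of edited alleles and not a clone. ChIP-seq with antibodies to Cbfa2t3 and to Zbtb1 was done in 2 replicates each, with input, on LPs without Notch stimulation.

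ETO proteins do not bind DNA on their own. They are brought to chromatin by transcription factors such as the E proteins, Tal1 and Lyl1, and they recruit NCoR and Sin3 complexes with histone deacetylases. In blood progenitors Cbfa2t3 is part of the complex that Lmo2 and Ldb1 hold together, Cbfa2t2 is a broadly expressed paralog that can join Cbfa2t3 in mixed oligomers, and Runx1t1 is best known as the fusion partner of RUNX1 in acute myeloid leukaemia. The comparisons below ask how much mRNA of each member LPs hold, whether the sgRNA against a member moved its paralog, and where Cbfa2t3 and Zbtb1 were found at the genes of the family.

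The regions that carry the ChIP-seq result are shown first, since the results below refer back to them. Each is the 200 bp at a peak centre, read from the plus strand of mm10 (*Cbfa2t3* itself lies on the minus strand), except that the last is trimmed to the 92 bases before the start of *Cbfa2t2*. Capitals mark E-boxes (CAGNTG on either strand, the site of E proteins, Tal1 and Lyl1), the Runx core TGTGGT, the GATA core AGATAA and the repeat TGGTGGT, each searched on both strands. The Runx core and the repeat share letters and could overlap, which no motifs do in the windows shown. The first pair are the strongest Cbfa2t3 peaks of the family, the next is the Zbtb1 peak that overlaps the first of them, the fourth holds the most E-boxes, the fifth holds no match, and the sixth is the Zbtb1 peak at the start of *Cbfa2t2*.
Cbfa2t3 peak, score 514.6, chr8:122700663-122700862: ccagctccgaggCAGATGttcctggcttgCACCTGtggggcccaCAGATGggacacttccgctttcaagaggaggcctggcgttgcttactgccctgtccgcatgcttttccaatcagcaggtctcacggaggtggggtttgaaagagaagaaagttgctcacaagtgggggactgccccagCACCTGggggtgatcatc
Cbfa2t3 peak, score 233.3, chr8:122701907-122702106: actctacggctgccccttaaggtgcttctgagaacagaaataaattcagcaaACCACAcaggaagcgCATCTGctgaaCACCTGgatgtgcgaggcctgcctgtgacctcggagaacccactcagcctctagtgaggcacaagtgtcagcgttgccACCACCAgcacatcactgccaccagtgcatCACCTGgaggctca
Zbtb1 peak, score 16.7, chr8:122700802-122701001: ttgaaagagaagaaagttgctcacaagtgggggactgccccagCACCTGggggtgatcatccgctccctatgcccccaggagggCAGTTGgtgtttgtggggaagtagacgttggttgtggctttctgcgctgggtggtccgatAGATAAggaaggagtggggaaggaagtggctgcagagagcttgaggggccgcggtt
Cbfa2t3 peak, score 136.1, chr8:122651530-122651729: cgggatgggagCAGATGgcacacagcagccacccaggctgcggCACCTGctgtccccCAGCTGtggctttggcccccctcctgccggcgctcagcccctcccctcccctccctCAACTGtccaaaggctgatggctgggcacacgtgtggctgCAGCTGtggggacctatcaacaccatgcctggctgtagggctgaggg
Cbfa2t3 peak, score 23.8, chr8:122689351-122689550: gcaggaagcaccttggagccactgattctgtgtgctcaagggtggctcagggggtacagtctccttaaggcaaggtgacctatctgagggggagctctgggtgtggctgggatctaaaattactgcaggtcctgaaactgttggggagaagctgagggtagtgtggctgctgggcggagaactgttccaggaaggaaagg
Zbtb1 peak, score 31.1, chr2:154436389-154436480: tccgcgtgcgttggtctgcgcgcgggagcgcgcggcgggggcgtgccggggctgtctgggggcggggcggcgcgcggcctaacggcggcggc

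QuantSeq counts each mRNA near its 3′ end, so a value does not grow with transcript length and levels of different genes can be set side by side. Values are reads of a gene per 1000000 reads of the library (CPM; the authors call them TPM). Intervals and floors cover counting error only, since no molecular identifiers are stated for these reads. The libraries held 1705416 to 2095447 reads, which could be recovered as whole numbers within 0.05 read for 99.98% of the values, and 3 reads, taken as the floor, were worth 1.43 to 1.76 CPM. Between replicates the counts spread more than sampling alone gives (chi-square over degrees of freedom 2.22 to 3.6). The study's methods call replicates biologically independent, but the labels do not say that they came from separate cultures, and otherwise p-values would measure technical spread only. The lymphoid progenitor label held, with 10 of 10 listed markers above a mean of 1 CPM and a summed level of 1459 to 1728 CPM in the 15 libraries, although *Rag1* and *Rag2* were near the floor (2.07 and 2.91 CPM on average). In contrast, the summed levels were 1.47 to 10.7 CPM for 7 OP9 stroma markers, 3.83 to 30.3 CPM for 5 myeloid, 0 to 18.1 CPM for 4 B lineage, 10.5 to 32.3 CPM for 4 T lineage (nearly all *Trac*) and 0 to 3.35 CPM for 4 erythroid markers, with *Col3a1*, *Elane*, *Cd79a*, *Ms4a1*, *Cd8a*, *Hba-a1* and *Hbb-bs* at 0 in every library. In bulk libraries, fewer cells of a type and less RNA per cell cannot be told apart.

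*Cbfa2t3* (ENSMUSG00000006362, chr8:122625141-122699109, minus strand, GRCm38) was the main ETO gene of LPs. In sgControl it was at 210, 189 and 172 CPM (361, 326 and 294 reads), a mean of 190 ± 18.7 CPM (SD, n = 3). Over all 15 libraries it ranged from 135 to 364 CPM, and no library was near the floor. *Cbfa2t2* (ENSMUSG00000038533, chr2:154436481-154539356, plus strand) was in each library far below it, at 11.03, 12.2 and 12.3 CPM in sgControl, a mean of 11.8 ± 0.698 CPM (SD, n = 3). These values rest on 19, 21 and 21 reads, and over the 15 libraries *Cbfa2t2* had 14 to 50 reads. Counting error alone gives a single sgControl value of 11.03 CPM a 95% Poisson interval of 6.64 to 17.2 CPM, whereas the interval of 210 CPM for *Cbfa2t3* in the same library was 189 to 232 CPM. *Cbfa2t2* differences are therefore measured with far less precision than those of *Cbfa2t3*.

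*Runx1t1* (ENSMUSG00000006586, chr4:13743436-13893649, plus strand) had 0 reads in each of the 15 libraries. A count of 0 allows up to 1.43 to 1.76 CPM in a single library and up to 0.106 CPM over the 28179128 reads of all libraries. The upper limit in any condition is thus below the lowest *Cbfa2t2* value, 6.69 CPM, and no sgRNA brought *Runx1t1* to a detectable level. It was not fitted in any comparison, and neither ChIP-seq list has a peak whose nearest gene is *Runx1t1*. Of the 3 members, 2 passed the filter of a mean above 1 CPM that kept 11554 genes for the tests.

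**Figure D1:**
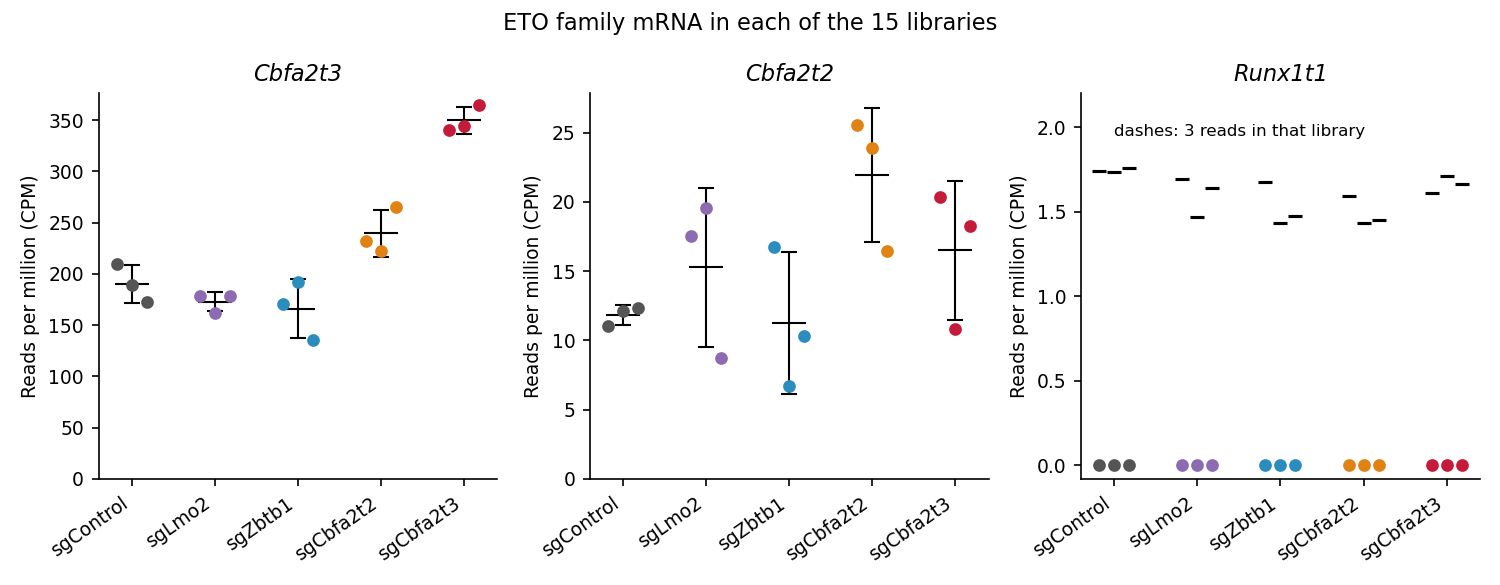
Level of each ETO family member in CPM (linear axis from 0) in the 15 libraries, 3 points for each sgRNA condition, with the mean and SD as bars for the expressed members and the value of 3 reads as dashes for *Runx1t1*. The libraries labelled sgCbfa2t3 sit at 340 to 364 CPM of *Cbfa2t3*, above all others, and *Runx1t1* is at 0 throughout.

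The labels were first checked against the mRNA of the targeted members. *Cbfa2t3* mRNA was not depleted in the libraries labelled sgCbfa2t3 but stood at 340, 344 and 364 CPM, a mean of 350 ± 12.9 CPM (SD, n = 3). All 3 libraries were above every other library of the experiment, and the mean was 1.84 times that of sgControl. The log2 fold change on log2(CPM + 1) was 0.88 with a standard error of 0.11 (limma adjusted p = 1.67e-07), which ranked second by p-value among 11554 genes, and it passed the threshold in all 15 alternatives to this fit. In this comparison 0.537% of the genes passed the adjusted threshold and 0.130% passed it upward. Libraries above all sgControl libraries were seen for 6.70% of the genes. The direction thus went against what a loss of mRNA would give. QuantSeq reads the 3′ end and the cut sites were not placed here, so mRNA of edited alleles may still be counted, and these reads do not show whether the protein was lost. The study's own check of the knockouts was made on protein, by immunoblots of Lmo2, Zbtb1 and Cbfa2t3, which are not analysed here. Cbfa2t2 was not among the proteins blotted.

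*Cbfa2t2* behaved in the same direction under its own sgRNA but did not pass the test. It was at 25.5, 23.9 and 16.4 CPM in the libraries labelled sgCbfa2t2, a mean of 21.9 ± 4.85 CPM (SD, n = 3), which is 1.85 times the sgControl mean. All 3 values were above the 3 sgControl values, which is also true of 6.88% of the genes tested in this comparison. The log2 fold change was 0.82 with a standard error of 0.33 and a 95% interval of 0.15 to 1.48, and the limma adjusted p was 0.412. Here 0.147% of the genes passed the adjusted threshold, and 0.0260% upward. Set against the 9 libraries with sgRNAs to the remaining 3 genes, the difference was 0.64 (limma adjusted p = 0.655), while that of *Cbfa2t3* under its own sgRNA was again 0.88 (limma adjusted p = 1.14e-10).

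A targeted mRNA that was not depleted was not particular to the ETO genes. *Zbtb1*, a zinc finger repressor, rose in the libraries labelled sgZbtb1 from 61.7 ± 5.51 to 106 ± 9.91 CPM (SD, n = 3 each), a log2 fold change of 0.77 (limma adjusted p = 0.00102), and the libraries did not overlap. *Lmo2* was at 16.3 ± 7.99 CPM in the libraries labelled sgLmo2 and 18.4 ± 4.17 CPM in sgControl (SD, n = 3 each), with overlap, and its log2 fold change of −0.26 did not pass (limma adjusted p = 0.956). Directions given below for sgZbtb1 and sgLmo2 are thus also those of the libraries so labelled.

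The central question for the family was whether targeting a paralog moved the other. A loss of Cbfa2t2 in the libraries labelled sgCbfa2t2 was not shown, so the comparison is by label. In the libraries labelled sgCbfa2t2, *Cbfa2t3* was at 232, 222 and 266 CPM, a mean of 240 ± 22.9 CPM (SD, n = 3) and 1.26 times that of sgControl. The lowest of these, 222 CPM, was above the highest sgControl library, 210 CPM, so the groups did not overlap. The log2 fold change was 0.33 with a standard error of 0.11 and a 95% interval of 0.11 to 0.55. With the unadjusted p of 0.00334 *Cbfa2t3* ranked 142nd of 11554 genes, of which 4.44% were higher at an unadjusted p under 0.05. After adjustment over all genes the difference did not pass (limma adjusted p = 0.265), nor did it in any of 14 alternatives, where it was between 0.26 and 0.41 with an adjusted p of 0.103 to 0.561. An exact two-sided permutation test gave p = 0.1, the smallest that 3 libraries against 3 allow.

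In the other direction the estimate was less precise and did not pass either. *Cbfa2t2* was at 20.4, 10.8 and 18.3 CPM in the libraries labelled sgCbfa2t3, a mean of 16.5 ± 5.01 CPM (SD, n = 3). The second of these lay below all sgControl libraries and the other two above them, so the groups overlapped. The log2 fold change was 0.40 with a standard error of 0.33 (limma adjusted p = 0.728), and its 95% interval of −0.26 to 1.07 includes no change as well as a doubling. The log2 fold change was 0.66 without sgCbfa2t3 replicate 2 and 0.24 without replicate 1.

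The order of the *Cbfa2t3* means was sgZbtb1 (166 ± 28.9 CPM), sgLmo2 (173 ± 9.27 CPM), sgControl (190 ± 18.7 CPM), sgCbfa2t2 (240 ± 22.9 CPM) and sgCbfa2t3 (350 ± 12.9 CPM; SD, n = 3 each). In sgZbtb1 the libraries were at 171, 192 and 135 CPM and in sgLmo2 at 179, 162 and 178 CPM. Both overlapped sgControl and each other. The log2 fold change against sgControl was −0.21 in sgZbtb1 (limma adjusted p = 0.326), where 4.79% of the genes passed, and −0.13 in sgLmo2 (limma adjusted p = 0.930), where 0.0173% passed. Leaving out 1 library gave −0.32 (without sgZbtb1 replicate 2) to −0.065 (without sgZbtb1 replicate 3) in sgZbtb1 and −0.20 (without sgControl replicate 3) to −0.061 (without sgControl replicate 1) in sgLmo2. The lowest 3 conditions in this order did not differ beyond their spread, while sgControl and sgCbfa2t2 did not overlap but did not pass after adjustment.

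The ETO sgRNAs were also compared with each other and with the sgRNAs to Lmo2 and Zbtb1. *Cbfa2t3* was lower in sgCbfa2t2 than in sgCbfa2t3, with a log2 difference of −0.55 ± 0.11 (SE; limma adjusted p = 0.0113), and the libraries did not overlap. Of all genes 0.0346% passed downward in this comparison, and 4.99% had libraries that did not overlap in that direction. This call was lost in 6 of 14 alternatives: without a filter on low values (limma adjusted p = 0.193), and without sgCbfa2t2 replicate 1 (0.0770) or 2 (0.143) or sgCbfa2t3 replicate 1 (0.0552), 2 (0.0808) or 3 (0.110). The difference itself stayed between −0.62 and −0.49.

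Pairs of conditions without sgControl, added after the values were seen, gave the remaining differences of *Cbfa2t3*. Against sgCbfa2t2, *Cbfa2t3* was lower in sgZbtb1 with a difference of −0.54 (limma adjusted p = 0.00107) and in sgLmo2 with −0.47 (limma adjusted p = 0.0353), each with a standard error of 0.11. In these comparisons 1.62% and 0.0866% of the genes passed downward, and 10.0% and 5.42% had libraries that did not overlap downward. These use the same sgCbfa2t2 libraries and are not independent of each other. The first call was lost without sgZbtb1 replicate 3 (limma adjusted p = 0.0620), the library with the lowest *Cbfa2t3*. The second was lost in 8 of 14 alternatives, with adjusted p-values up to 0.319: those without any of the 3 sgLmo2 libraries or sgCbfa2t2 replicate 1 or 3, the pseudocount of 0.1, no filter, and the 6 libraries alone. Against sgCbfa2t3 the differences were −1.08 in sgZbtb1 (limma adjusted p = 3.70e-11) and −1.01 in sgLmo2 (limma adjusted p = 5.06e-10), and both passed in all 14 alternatives. Here 0.822% and 0.216% of the genes passed downward, and 7.62% and 5.95% had libraries that did not overlap downward.

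**Figure D2:**
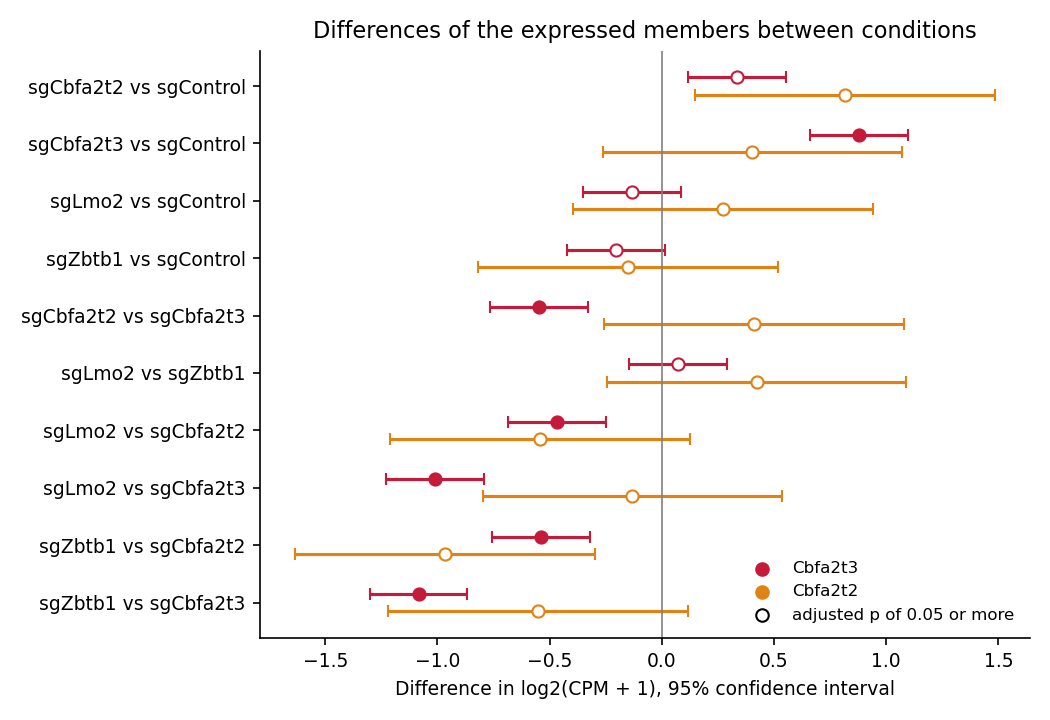
Differences of *Cbfa2t3* and *Cbfa2t2* between conditions in log2(CPM + 1) with 95% confidence intervals from limma, first condition minus second, with filled points for an adjusted p under 0.05. *Cbfa2t3* has 6 filled points, the farthest at −1.08 in sgZbtb1 vs sgCbfa2t3, and *Cbfa2t2* has 0, with wider intervals.

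*Cbfa2t2* did not pass in any of these pairs. Its libraries were at 17.5, 19.6 and 8.77 CPM in sgLmo2 and at 16.8, 6.69 and 10.3 CPM in sgZbtb1, so each of these conditions spanned sgControl. The log2 fold changes against sgControl were 0.27 in sgLmo2 (limma adjusted p = 0.957) and −0.15 in sgZbtb1 (limma adjusted p = 0.878). In sgLmo2 it was 0.61 without replicate 3 and 0.069 without replicate 2. In sgZbtb1 it was −0.46 to 0.14 when a library was left out, and positive without sgZbtb1 replicate 2. The order of the means was sgZbtb1 (11.3 ± 5.10 CPM), sgControl (11.8 ± 0.698 CPM), sgLmo2 (15.3 ± 5.73 CPM), sgCbfa2t3 (16.5 ± 5.01 CPM) and sgCbfa2t2 (21.9 ± 4.85 CPM; SD, n = 3 each), and no neighbours in it differed beyond their spread. The widest difference, −0.97 in sgZbtb1 against sgCbfa2t2, had a limma adjusted p of 0.128. Between the libraries labelled sgCbfa2t2 and sgCbfa2t3 it was 0.41 (limma adjusted p = 0.924), and 0.15 to 0.60 when a library was left out.

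The composition of the family within a library does not depend on how libraries are scaled. Of the family's reads in sgControl, 94.1% ± 0.843 were *Cbfa2t3*, and its share was 91.5% ± 2.31 for sgCbfa2t2, 91.9% ± 3.11 for sgLmo2, 93.5% ± 2.83 for sgZbtb1 and 95.5% ± 1.32 for sgCbfa2t3 (SD, n = 3 each). The lowest single library was sgLmo2 replicate 2 with 89.2% (332 of 372 reads, Wilson 95% interval 85.7% to 92.0%) and the highest sgCbfa2t3 replicate 2 with 96.9% (603 of 622 reads, 95.3% to 98.0%). Thus *Cbfa2t3* was the prevailing member in every condition, also where it was targeted. The shares of sgCbfa2t2 and sgCbfa2t3 did not overlap, with a difference of −3.99 percentage points (exact two-sided permutation p = 0.1, the smallest possible), and all other pairs of conditions overlapped. Their nearest libraries differed by less than the counting error. These were sgCbfa2t2 replicate 3 with 94.2% (Wilson 95% interval 92.0% to 95.8%) and sgCbfa2t3 replicate 1 with 94.4% (92.3% to 95.9%). The summed family level was 202 ± 18.0 CPM in sgControl, 262 ± 18.5 CPM in sgCbfa2t2 and 366 ± 14.6 CPM in sgCbfa2t3 (SD, n = 3 each), so that it followed *Cbfa2t3*.

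**Figure D3:**
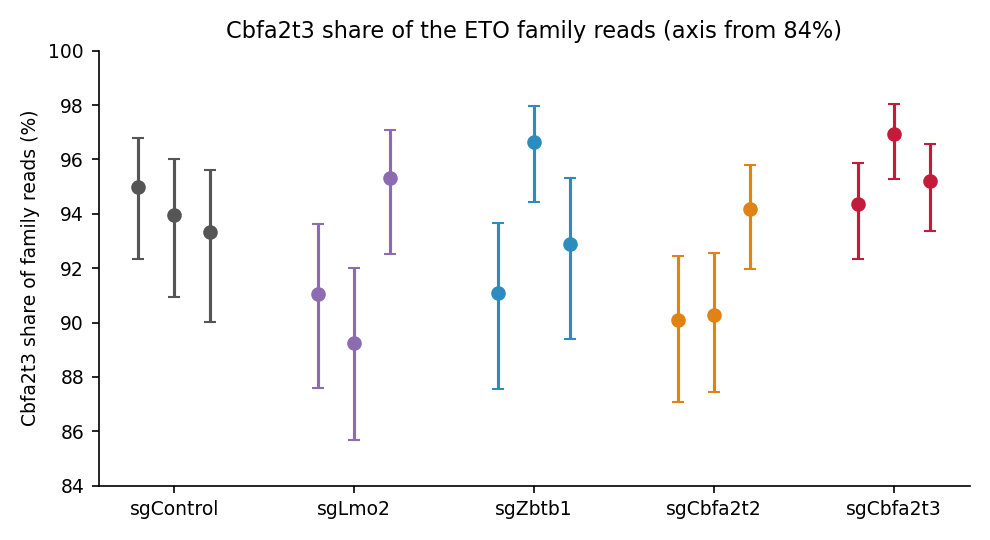
*Cbfa2t3* reads as a percentage of all ETO family reads in each of the 15 libraries (axis from 84% to 100%), with Wilson 95% intervals for counting error. The points lie between 89.2% and 96.9%, and the sgCbfa2t2 and sgCbfa2t3 points are the only pair of conditions that do not overlap. The intervals of their nearest points, 94.2% and 94.4%, do overlap.

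Some markers moved beside these results. *Ly6d*, a surface protein of B-lineage-biased lymphoid progenitors, fell in the libraries labelled sgCbfa2t2 (log2 fold change −0.69, limma adjusted p = 0.0186), sgCbfa2t3 (−1.43, 6.82e-10) and sgZbtb1 (−2.40, 3.19e-20), and it was the only listed marker to pass in the ETO sgRNA libraries. In sgZbtb1, *Cd34* (0.53, limma adjusted p = 0.00107) and *Cd93* (0.52, 0.000159) of the same list rose, while *Kit* (−1.14, 0.0205), *Ptprc* (−0.28, 0.0393) and the B lineage gene *Pax5* (−2.19, 0.00420) fell, and in sgLmo2 0 listed markers passed. The 4 T lineage markers summed to 12.9 to 21.7 CPM in sgCbfa2t2 and 25.6 to 29.5 CPM in sgControl, and the 4 B lineage markers to 1.07 to 2.85 CPM in sgCbfa2t3 and 5.21 to 8.79 CPM in sgControl. In sgZbtb1 the T lineage markers summed to 10.5 to 20.7 CPM and the B lineage markers to 0 to 1.47 CPM, and in sgLmo2 the 5 myeloid markers summed to 3.83 to 11.3 CPM, where sgControl had 15.05 to 17.0 CPM and sgCbfa2t3 17.7 to 21.4 CPM. None of these sums overlapped those of sgControl. Their part in the results on *Cbfa2t3* was not tested. Antisense and neighbouring transcripts took few reads, since *Gm10612*, *Gm20388* and *Gm15899*, which overlap *Cbfa2t3*, were at 0 in all libraries and *Pabpn1l*, its downstream neighbour, was at 0 to 3.91 CPM.

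The partners of the ETO proteins were read from 3 lists. Of 17 genes of the Lmo2 complex and its DNA-binding partners 14 were fitted, of 11 genes of the corepressor machinery 11, and of 9 other partners 8, and 0 of these 33 passed the adjusted threshold in sgCbfa2t2 or in sgCbfa2t3 against sgControl with limma, where 0.147% and 0.537% of all genes did, so that a count of 0 is near the background. At an unadjusted p under 0.05, 3 of 14, 1 of 11 and 0 of 8 passed in sgCbfa2t2, where 9.56% of all genes did, and 2 of 14, 0 of 11 and 1 of 8 in sgCbfa2t3, where 10.6% did. The median log2 fold changes were 0.02, 0.04 and 0.17 in sgCbfa2t2 and −0.08, 0.05 and 0.10 in sgCbfa2t3, beside 0.00486 and −0.0104 over all genes.

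Among the most abundant partners, *Runx1*, a DNA-binding regulator of blood development, was at 320.0 ± 15.97 CPM in sgControl, 278 ± 8.30 CPM in sgCbfa2t2 and 287 ± 31.6 CPM in sgCbfa2t3 (SD, n = 3 each). It differed by −0.20 (limma adjusted p = 0.502) and −0.16 (0.588) on the log2 scale. *Lyl1*, a bHLH partner of Lmo2, was at 160 ± 6.63 CPM in sgControl, 189 ± 11.4 CPM in sgCbfa2t2 and 200 ± 14.5 CPM in sgCbfa2t3 (SD, n = 3 each). Its log2 fold changes were 0.24 (limma adjusted p = 0.461) and 0.32 (0.197). The lowest p-values of this list in both ETO conditions were those of *Tcf4*, an E protein, which is named here after its values were seen and differed by −0.35 (limma adjusted p = 0.245) and −0.36 (0.142). In the libraries labelled sgZbtb1, where 4.79% of all genes passed, 3 of the 14 passed, and 0 of 11 and 0 of 8 in the other lists: besides *Zbtb1* itself, which rose by 0.77 (limma adjusted p = 0.00102), *Lyl1* rose by 0.51 (limma adjusted p = 0.000943) and *Runx1* fell by 0.83 on the log2 scale (limma adjusted p = 3.28e-09). *Ssbp3*, which stabilises Ldb1, differed by 0.10 and −0.02 in sgCbfa2t2 and sgCbfa2t3 (limma adjusted p = 0.815 and 0.973).

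*Ncor1*, the scaffold of the NCoR complex and at 609 CPM the most abundant gene of the 3 lists, differed by −0.10 in sgCbfa2t2 and −0.05 in sgCbfa2t3 (limma adjusted p = 0.747 and 0.882). *Hdac2*, a class I histone deacetylase, differed by −0.02 and 0.00144, and *Sin3b*, a Sin3 scaffold, by 0.04 and 0.08 (limma adjusted p between 0.876 and 0.998). The lowest p-value of this list in sgCbfa2t2 was that of *Hdac1*, which is named here after its values were seen. It differed by 0.35 in sgCbfa2t2 (limma adjusted p = 0.303) and 0.22 in sgCbfa2t3 (0.542). Of the other partners, *Prkar2a*, a regulatory subunit of protein kinase A, differed by 0.04 and 0.07, and *Zbtb38*, a zinc finger repressor, by −0.07 and −0.04 (limma adjusted p between 0.888 and 0.956). *Rbpj*, the DNA-binding factor of Notch signalling, was at 54.7 ± 2.76 CPM in sgControl, 56.4 ± 5.23 CPM in sgCbfa2t2 and 40.8 ± 7.96 CPM in sgCbfa2t3 (SD, n = 3 each), and its log2 fold change of −0.43 in sgCbfa2t3 did not pass (limma adjusted p = 0.370).

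**Figure D4:**
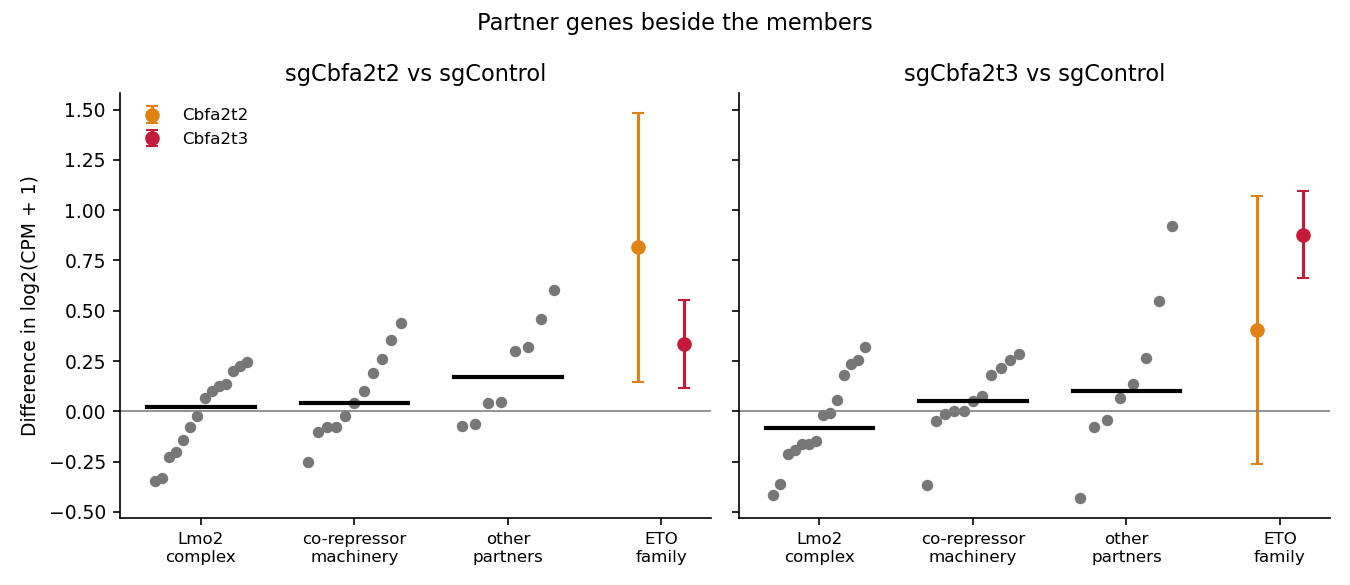
Log2(CPM + 1) differences against sgControl of the fitted genes of 3 partner lists (grey points, bars at the median) and of the expressed members (with 95% confidence intervals), in sgCbfa2t2 on the left and sgCbfa2t3 on the right. The medians of the lists lie between −0.08 and 0.17, while *Cbfa2t3* is at 0.33 and 0.88.

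As a description of the pattern of each member over the 15 libraries, its log2 values were compared with those of 7959 other protein-coding genes with a mean above 10 CPM. The genes most like *Cbfa2t3* were *H2afz*, the histone variant H2A.Z (r = 0.816), *Ccnd2*, cyclin D2 (r = 0.813), and *Tle5*, a Groucho-related corepressor (r = 0.813). *Ccnd2* was at 1130 ± 57.8 CPM in sgControl, 1303 ± 129 CPM in sgCbfa2t2 and 1577 ± 171 CPM in sgCbfa2t3 (SD, n = 3 each). The most opposed were *Lamp2*, a lysosomal membrane protein (r = −0.817), *C1ql2* (r = −0.814) and *Slc9a9*, a sodium-proton exchanger (r = −0.813). Each r was taken over 15 libraries of 5 conditions and so mixes differences between and within conditions. The genes named are the extremes of 7959, so a high r was selected for, and none of these values was tested.

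The genes most like *Cbfa2t2*, picked in the same way, were *Spast*, the microtubule-severing spastin (r = 0.853), *Pdcd5* (r = 0.793) and *Mre11a*, a DNA break repair nuclease (r = 0.788). *Zfp84*, a zinc finger gene (r = −0.840), *Smc4*, a condensin subunit (r = −0.766), and *Mcm10*, a replication factor (r = −0.761), were the most opposed. With 14 to 50 reads of *Cbfa2t2* per library, its pattern carries more counting error than that of *Cbfa2t3*.

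Cbfa2t3 protein was found at its own gene at many places. The Cbfa2t3 list holds 10 peaks whose nearest gene is *Cbfa2t3*, all on chromosome 8. Of the 3593 genes that are nearest to at least 1 peak of this list, 67.0% have 1 peak, the median is 1, and 4 have more than *Cbfa2t3* (*Gm17746*, *Mgst2*, *Runx3* and *Sept9* with 11 each). The gene spans 73969 bases, and this count was not adjusted for the length of genes. There is 1 list for both replicates of a factor, so peak scores have no spread between replicates and the depth behind a score is unknown.

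The strongest of these peaks lay between genes, upstream of *Cbfa2t3* at −1.65 kb from its start (chr8:122700574-122700952). Its score of 514.6 was the 8th highest of 6077, in a list with a median of 33.2. A second peak at −2.9 kb (chr8:122701818-122702196) had a score of 233.3, rank 83. Together they make the upstream side of the promoter the place of highest Cbfa2t3 signal at the gene. Farther upstream were peaks at −10.5 kb (score 79.6) and −13.6 kb (score 61.9).

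The other 6 peaks nearest to *Cbfa2t3* lie in its first intron. Their scores were 136.1 at 47.5 kb downstream of the start (chr8:122651441-122651819), 111.2 at 33.7 kb, 67.2 at 27.1 kb, 59.1 at 32.1 kb, 39.8 at 17.4 kb and 23.8 at 9.66 kb (chr8:122689262-122689640). The list measures 5 of them, all but the 23.8 peak, from an inner start site of *Cbfa2t3*, whose promoter in RefSeq lies at chr8:122678126-122678425. In all, 9 of the 10 peaks scored above the list's median, and the peak nearest downstream of the outer start was the weakest.

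Another 2 Cbfa2t3 peaks lie inside *Cbfa2t3* although the list gives *Pabpn1l* as their nearest gene. The first, with a score of 95.5, is in an intron 62.0 kb from the start (chr8:122636886-122637264), and the second, with a score of 20.9, is in the 3′ UTR (chr8:122626752-122627130). When peaks were counted by a centre in the gene or within 10 kb of it, the number was again 10, of which 8 were the same. No Cbfa2t3 peak has *Cbfa2t2* as its nearest gene or lies within 10 kb of it.

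**Figure D5:**
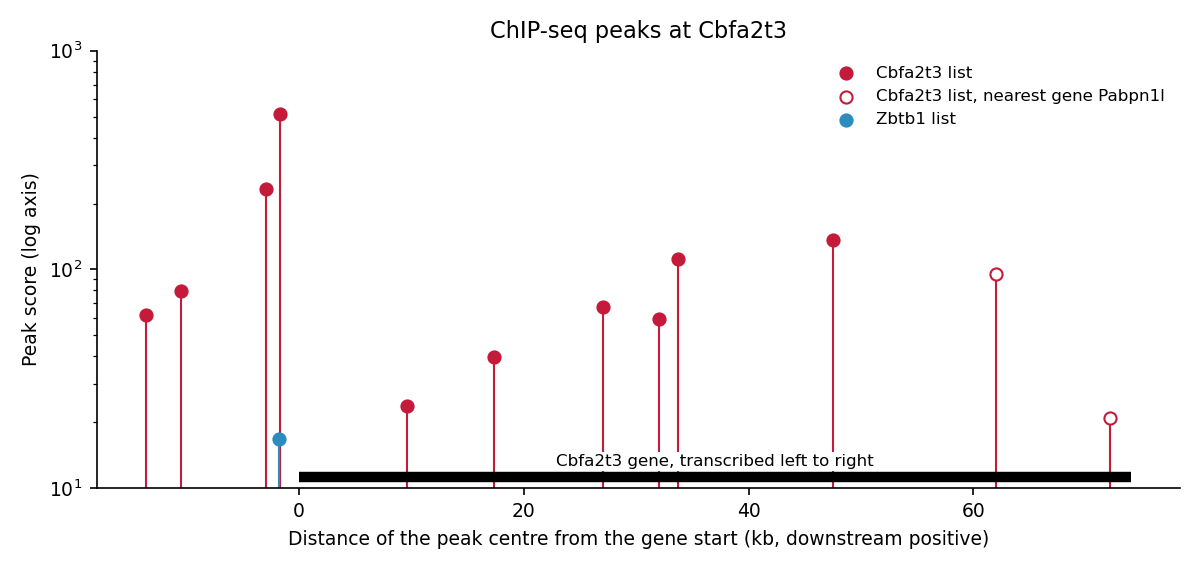
Scores (log axis) of the ChIP-seq peaks at *Cbfa2t3* against the distance of their centre from the gene start in kb, upstream to the left, with the gene as a black bar. The 2 highest Cbfa2t3 peaks, 514.6 and 233.3, stand at −1.65 and −2.9 kb, and the Zbtb1 peak, 16.7, stands beside the first.

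Zbtb1 was found once at each expressed member. Its peak at *Cbfa2t3* (chr8:122700717-122701087) had a score of 16.7, rank 5254 of 5898, in a list with a median of 28.0 and a lowest score of 15. It overlapped the strongest Cbfa2t3 peak by 236 bases, which is 63.6% of the Zbtb1 peak and 62.3% of the Cbfa2t3 peak. The centres were 139 bases apart, so the pair is shared by overlap but not when centres must lie within 100 bases. The place where Cbfa2t3 was strongest at its own gene was thus also a place of weak Zbtb1 signal. It was 1 of the 10 Cbfa2t3 peaks and 1 of the 2 Zbtb1 peaks of the family, while in the whole lists 24.4% of Cbfa2t3 peaks and 25.2% of Zbtb1 peaks overlapped a peak of the other.

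At *Cbfa2t2* the Zbtb1 peak was centred 8 bases from the gene start (chr2:154436304-154436674), with a score of 31.1 and rank 2610. At a score of at least 30 it is the only Zbtb1 peak of the family that is left. In the sgZbtb1 libraries neither *Cbfa2t2* (−0.15, limma adjusted p = 0.878) nor *Cbfa2t3* (−0.21, limma adjusted p = 0.326) passed the test. The *Cbfa2t2* difference turned positive, at 0.14, without sgZbtb1 replicate 2.

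The sequences printed above differ between these places. An E-box was in 9 of the 10 Cbfa2t3 peaks nearest to *Cbfa2t3*, close to the 83.2% of all 6070 windows of that list on assembled chromosomes. The strongest window held 4, the 233.3 window 3 and the 136.1 window 5, while the weakest, 23.8, was the window without a match. The windows between held 2 (score 111.2), 2 (79.6), 3 (67.2), 4 (61.9), 3 (59.1) and 1 (39.8), so the number did not fall steadily with the score. In the strongest window the E-boxes lay 56 or more bases from the centre, and at 100 bp 7 of the 10 windows still held at least 1, where 66.5% of all windows did. The Runx core was in 2 of 10 windows (43.7% of the list), the GATA core in 0 of 10 (6.4%) and the repeat TGGTGGT in 1 of 10 (6.9%). Both peaks inside the gene that are listed under *Pabpn1l* held a Runx core and an E-box, so that with them the Runx core was in 4 of 12 windows and the E-box in 11 of 12. With 10 windows of a single gene these counts are a description, and a match is not a bound site.

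The Zbtb1 window at *Cbfa2t3* held 2 E-boxes, of which 1 (CACCTG, chr8:122700845-122700850) is also in the strongest Cbfa2t3 window, and a GATA core. In the Zbtb1 list 39.4% of windows held an E-box, 41.3% the Runx core, 4.3% the GATA core and 15.8% the repeat. The window at the start of *Cbfa2t2* held 0 matches of the 4 motifs. It was 81.5% G or C with 39 CG dinucleotides, where the medians of the Zbtb1 list are 59.5% and 8, and so unlike the window at *Cbfa2t3*, with 58.0% and 6. The promoters in RefSeq (around the start sites, GRCm38) were also compared: that of *Cbfa2t2* had 79.0% G or C and 0 E-boxes, that of the inner start of *Cbfa2t3* 81.7% and 1, and that of its outer start 63.7% and 3, while 51.4% of 32851 promoters held an E-box and their median was 52.7%.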

How the data were processed

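QuantSeq was measured in 15 libraries and ChIP-seq in 2 replicates per factor. Conditions came from the sample labels. The authors trimmed reads with fastp, mapped them to mm10 with STAR, and deposited values per gene called TPM. These deposited values are CPM, since in each library low values step by the same amount for short and long genes. The counting program is not given in the sources used here. A row without a gene was left out. Genes with a mean above 1 CPM (11554) entered the limma 3.58.1 fit (R 4.3.3; trend, two-sided, Benjamini-Hochberg) on log2(CPM + 1), with all 15 libraries in 1 fit, where a log2 fold change understates changes of low genes. Single genes were also given exact permutation tests (scipy 1.17.1). Alternatives were a pseudocount of 0.1, no filter (18602 genes), a mean above 10 (8157 genes), the replicate block, the 6 libraries alone, size factors by median of ratios, recovered reads in edgeR 4.0.16 and DESeq2 1.42.0, and leaving out each library. The steps were tested on simulated data. ChIP-seq reads were mapped by the authors with Bowtie 1.1.1, who called peaks with HOMER against input, and deposited peaks reproducible in both replicates as 1 list per factor, with the normalized peak score and a focus ratio as a fraction (not reported here). Distances and windows were computed from the peak centres on GRCm38 (pysam 0.24.0), genes from GENCODE, and promoters from RefSeq. The table's columns of the authors' means, SDs, fold changes and p-values were not used. The genes named are the members, from each partner list those past the adjusted threshold under an ETO sgRNA or otherwise the 3 most abundant, and the 3 genes most and least like each expressed member. The members and lists were chosen with earlier results of these data known.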

Additional observations from a re-analysis of the deposited data

Results flagged for a closer look

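The effects of the sgRNAs on *Cbfa2t3* mRNA differed between conditions. The difference in log2(CPM + 1) was −0.55 in sgCbfa2t2 vs sgCbfa2t3 (limma adjusted p = 0.0113), −0.47 in sgLmo2 vs sgCbfa2t2 (0.0353), −1.01 in sgLmo2 vs sgCbfa2t3 (5.06e-10), −0.54 in sgZbtb1 vs sgCbfa2t2 (0.00107) and −1.08 in sgZbtb1 vs sgCbfa2t3 (3.70e-11). Each of these compared 3 libraries with 3 that did not overlap. In the same order, 4.99%, 5.42%, 5.95%, 10.0% and 7.62% of all genes did not overlap downward, and 0.0346%, 0.0866%, 0.216%, 1.62% and 0.822% were called downward. The pairs with sgLmo2 or sgZbtb1 were added after the values were seen. Since the pairs share libraries, they are not independent of each other. The call in sgLmo2 vs sgCbfa2t2 was lost in 8 of 14 alternatives, that in sgCbfa2t2 vs sgCbfa2t3 in 6 of 14 and that in sgZbtb1 vs sgCbfa2t2 in 1 of 14 (without sgZbtb1 replicate 3), while those against sgCbfa2t3 in sgLmo2 and sgZbtb1 held in all 14.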

How the results depend on the processing

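The rise of *Cbfa2t3* in the libraries labelled sgCbfa2t3 passed in all 15 alternatives, and its difference in sgCbfa2t2 against sgControl passed in 0 of 14. The difference of *Cbfa2t3* in sgCbfa2t2 vs sgCbfa2t3 stayed at −0.55 but lost its call without a filter (limma adjusted p = 0.193), and was −0.62 to −0.49 when libraries were left out, with the call lost in 5 of these 6 fits (limma adjusted p = 0.0552 to 0.143). Differences that were not called changed sign without 1 library: *Cbfa2t2* in sgZbtb1 vs sgControl was −0.46 to 0.14 and positive without sgZbtb1 replicate 2, *Cbfa2t3* in sgLmo2 vs sgZbtb1 was −0.068 to 0.18 and negative without sgZbtb1 replicate 3, and *Cbfa2t2* in sgLmo2 vs sgCbfa2t3 was −0.39 to 0.20, at 0.20 without sgLmo2 replicate 3 and 0.04 without sgCbfa2t3 replicate 1. Genes called by limma against sgControl numbered 17 in sgCbfa2t2, 62 in sgCbfa2t3, 2 in sgLmo2 and 554 in sgZbtb1, and 9 in sgCbfa2t2 vs sgCbfa2t3. Without a filter these were 0 (1402 at an unadjusted p under 0.05, beside 17 in edgeR and 28 in DESeq2 with the filter), 24, 2, 330 and 1. That fit used 18602 genes both to estimate the spread and to adjust the p-values, and the part of each was not tested. With the 6 libraries alone sgLmo2 had 1. Leaving out libraries gave 2 to 26, 26 to 59, 1 to 4, 306 to 459 and 1 to 5. For sgCbfa2t2 the lowest count, 2, came without sgCbfa2t2 replicate 2 or sgControl replicate 3. The cause was not tested. With the replicate block the counts were 36, 93, 14, 709 and 13, and no call of a member changed. Whether the replicate numbers pair the samples was not settled. Same-numbered libraries deviated together with correlations of −0.00707 to 0.0656. The mean was 0.0279 for same numbers and −0.0139 for different numbers, and 14 of 15 libraries were on average closest to their own number. The main fit used no block. Among peaks, 1 Zbtb1 peak was left at a score of at least 30, 0 member peaks were shared with centres within 100 bp, and 0 Cbfa2t3 windows held TGGTGGT at 100 bp. DESeq2 gave no adjusted p for *Cbfa2t2* in sgCbfa2t2 vs sgControl. *Runx1t1*, with 0 reads, could not be fitted. *Cbfa2t2* rests on 14 to 50 reads per library and *Cbfa2t3* on 275 to 658, and the part of depth in their errors was not tested.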
